A study of Mus musculus with 2 samples.

Results

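Secreted inflammatory signals from 10 genes were followed through the cells of the neonatal mouse brain: the CC chemokines Ccl2, Ccl7, Ccl12, Ccl3 and Ccl4, the CXC chemokines Cxcl2 and Cxcl10, and the cytokine genes Tnf, Il1a and Il1b. They are 10 of the 32285 features in the count tables and were taken by gene symbol; each symbol matched 1 feature. The list was chosen by the genes' levels in the microglia of these same libraries, so their levels over cell classes are given as a description, with no test. The data are single-cell RNA counts from whole brain of C57BL/J mice at postnatal day 10, in 2 libraries that form 1 group and carry the replicate numbers 1 and 2. The mice had no treatment and no genetic change that the labels name, and there is no control group. The labels speak of 6 mice but tie none to a library and do not say whether the libraries are separate animals, so the spread between them may be technical. Fresh suspensions were captured as droplets with the Chromium 3' v3 kit, which counts messenger RNA molecules by a unique molecular identifier (UMI).

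Chemokines are small secreted proteins that steer moving cells through receptors on the cell surface. Ccl2, Ccl7 and Ccl12 attract monocytes through the receptor Ccr2. Ccl3 and Ccl4 attract monocytes, macrophages and T cells, and Ccl3 acts through Ccr1 among others. Cxcl2 acts on neutrophils through Cxcr2, and Cxcl10 acts through Cxcr3. Tnf and the interleukin-1 proteins Il1a and Il1b are cytokines that switch on inflammatory genes in the cells that receive them, largely through the transcription factor NF-kappaB. In the brain, microglia, which live in the tissue itself, and border macrophages, which live along vessels and meninges, can make these signals.

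The sequences just upstream of 4 of the genes are shown because these genes later fall into different patterns: Cxcl10 was higher in microglia and Cxcl2 in border macrophages, while Il1a and Il1b lie next to each other but differed in how many cells held them. Each line gives the 220 bases before the gene's start, 5′ to 3′ on the gene's strand, from RefSeq with build GRCm38.p6. For Cxcl2 the RefSeq start lies inside the gene as placed by GENCODE, whose coordinates are given further below. The last bases of its line thus fall within those coordinates. Capitals mark matches, on either strand, to 4 motifs: the NF-kappaB consensus, the AP-1 site TGANTCA, the core GAAANNGAAA of the interferon-stimulated response element, and the TATA box TATAAA.
Cxcl10 (chr5:92348890-92349109, minus strand): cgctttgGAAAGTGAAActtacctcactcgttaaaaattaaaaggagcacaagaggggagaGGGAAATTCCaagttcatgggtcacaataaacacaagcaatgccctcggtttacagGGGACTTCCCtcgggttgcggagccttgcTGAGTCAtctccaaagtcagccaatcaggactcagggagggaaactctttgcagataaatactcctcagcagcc
Cxcl2 (chr5:90903679-90903898, plus strand): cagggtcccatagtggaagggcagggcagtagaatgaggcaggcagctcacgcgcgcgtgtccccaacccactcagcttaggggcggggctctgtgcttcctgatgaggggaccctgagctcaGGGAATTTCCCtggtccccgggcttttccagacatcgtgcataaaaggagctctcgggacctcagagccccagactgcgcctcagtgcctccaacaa
Il1a (chr2:129309973-129310192, minus strand): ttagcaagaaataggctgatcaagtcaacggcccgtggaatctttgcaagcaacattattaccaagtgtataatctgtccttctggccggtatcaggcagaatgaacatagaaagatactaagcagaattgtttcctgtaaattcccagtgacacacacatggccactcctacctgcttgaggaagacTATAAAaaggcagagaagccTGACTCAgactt
Il1b (chr2:129371140-129371359, minus strand): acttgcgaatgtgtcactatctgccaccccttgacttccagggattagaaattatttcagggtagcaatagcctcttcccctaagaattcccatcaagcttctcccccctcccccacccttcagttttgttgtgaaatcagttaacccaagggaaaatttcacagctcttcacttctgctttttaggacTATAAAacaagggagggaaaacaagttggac
The RefSeq table held 7 of the 10 genes; Ccl2, Ccl4 and Ccl7 were not matched. Over windows of 250 bases, the NF-kappaB consensus was present at Cxcl2 and Cxcl10 and in 3.90% of all 32851 promoters. TGANTCA was present at Il1a and Cxcl10 and in 6.75% of promoters, and GAAANNGAAA at Cxcl10 alone among the 7 and in 2.98% of promoters. TATAAA was present at Il1a, Il1b, Ccl12 and Tnf and in 12.4% of promoters. The 2 NF-kappaB matches at Cxcl2 overlap and form 1 stretch of capitals. Ccl3 held none of the 4 motifs in its window. A match describes the letters and shows no binding.

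Library 1 came with 51452085 UMIs on 12978 barcodes, and library 2 with 45532691 UMIs on 19508 barcodes. After quality limits and the removal of doublets, 12029 and 13994 cells were kept, with a median of 3428 and 1912 UMIs. Cells were clustered without the 10 genes and without the related gene lists used below, and clusters were named from marker genes. There were 94 microglia-like cells in the first library and 1934 in the other, and 45 and 160 border macrophage-like cells, so the values of library 1 rest on few cells. The 10 microglia markers, such as P2ry12 and Tmem119, summed to 8946 and 8024 CPM (counts per 1000000 UMIs of the class) in the microglia-like class, against 1841 and 2132 CPM in the border class. The 10 border macrophage markers, such as Mrc1 and Lyve1, summed to 9678 and 8610 CPM in the border class, against 1130 and 1152 CPM in the microglia-like class. Monocyte markers summed to 0 and 8.65 CPM in microglia-like cells and to 0 and 10.0 CPM in border macrophage-like cells. The libraries share 90 barcode sequences, of which 68 were kept in both and 12 were macrophages in either. Without the shared barcodes, an alternative chosen after seeing the data, the 10 genes summed to 4697 CPM in microglia-like cells, and the test below made 3 and 6 calls among the 10 genes, the same as with them.

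Together the 10 genes made up 5037 CPM of the microglia-like class in library 1 and 4338 CPM in library 2, which is 4687 ± 494 CPM (SD, n = 2 libraries). They made up 4859 and 3552 CPM of the border macrophage-like class. In each library the microglia-like value was the higher, but the ranges of the classes overlapped. The microglia-like class was 0.781% of the cells of library 1 and 13.8% of library 2, and it held 60.6% and 79.8% of all UMIs of the 10 genes. The border class held 31.3% and 5.55% of them. At least 1 of the 10 genes was detected in 87.2% and 87.5% of microglia-like cells.

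Free RNA in droplets gives UMIs in cells that do not make a gene, so the same shares were read in excitatory neuron-like cells, a class of like depth. Median UMIs per cell were 3086.5 and 3677 in microglia-like, 3196 and 3779 in border macrophage-like, and 3531 and 3481 in excitatory neuron-like cells. In the neurons the share of cells with a UMI lay between 0% and 0.310% over the 10 genes in library 1. In library 2 it lay between 0% and 2.17%, and the highest were Ccl4 and Ccl3. Ccl2, Cxcl2, Il1a and Il1b had no UMI in the neurons of either library. Over the 10 classes other than macrophages with at least 40 cells in each library, Ccl4 averaged 0.809 CPM in library 1 and 42.3 CPM in library 2. Ccl3 averaged 1.63 and 36.5 CPM. Both averages were higher in library 2, the library with far more microglia-like cells. A few classes weighed most in library 2: fibroblast-like cells, at 265 CPM for Ccl4 and 313 CPM for Ccl3, and endothelial-like cells, at 98.4 CPM for Ccl4. Excitatory neuron-like cells were at 7.21 and 4.95 CPM there. Whether free RNA carried these levels was not tested.

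**Figure D1:**
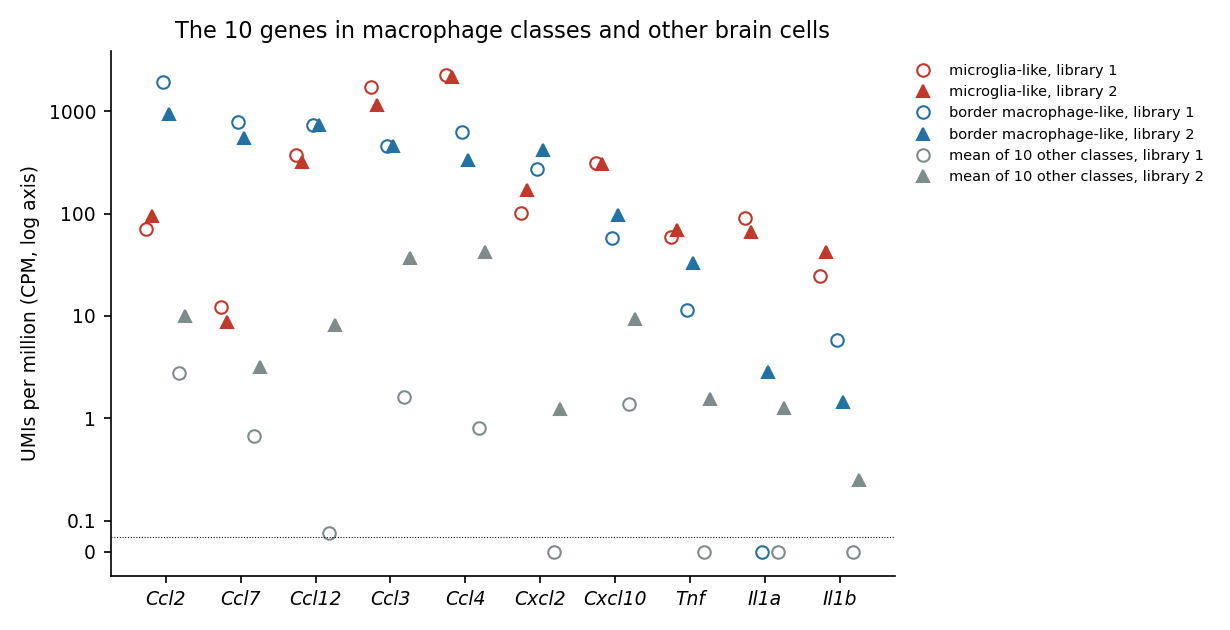
Level of each of the 10 genes in the 2 macrophage classes and as the mean of 10 other classes, with 1 point per library. Values are CPM of summed UMIs on a log axis, and values of 0 sit under the dotted line. Of the sets shown, the border class is highest for Ccl2 and Ccl7, and the microglia-like class for Ccl3, Ccl4 and Cxcl10. The mean hides single classes. Fibroblast-like cells averaged 17.9 CPM of Ccl7 against 10.6 in microglia-like cells, and 6.02 CPM of Il1a against 1.43 in the border class.

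Of the chemokines that act on Ccr2, Ccl2 and Ccl7 were far higher in the border class and Ccl12 was present in both macrophage classes. Ccl2, the main monocyte attractant, was at 1916 and 929 CPM in border macrophage-like cells and at 71.0 and 93.8 CPM in microglia-like cells. It was detected in 62.2% and 65.0% of border cells and in 12.8% and 15.8% of microglia-like cells. The lower border library lay far above both microglia-like values. Ccl7, its neighbour on chromosome 11, was at 779 and 551 CPM in the border class and at 12.4 and 8.77 CPM in the microglia-like class. It was detected in 53.3% and 46.2% of border cells, against 3.19% and 2.07% of microglia-like cells. The border class alone held 90.6% and 75.1% of the UMIs of Ccl7. Ccl12, a chemokine that mice have beside Ccl2, was shared more evenly. It was at 733 and 734 CPM in the border class and at 374 and 317 CPM in the microglia-like class, and it was detected in 48.9% and 56.9% against 51.1% and 48.2% of cells. Its groups did not overlap in level, but about as many cells carried it in the one class as in the other. Fibroblast-like cells came next for Ccl2 and Ccl7, and for Ccl7 their 5.67 and 30.1 CPM overlapped the microglia-like values.

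Ccl3 and Ccl4, chemokines of macrophages and T cells, were higher in the microglia-like class. Ccl3 was at 1729 and 1134 CPM there and at 456 and 456 CPM in border macrophage-like cells. It was detected in 55.3% and 58.3% of microglia-like and in 33.3% and 38.1% of border cells. The groups did not overlap in either measure. Ccl4 was at 2267 and 2132 CPM in the microglia-like class and at 629 and 334 CPM in the border class. It was detected in 47.9% and 51.6% of microglia-like cells, against 13.3% and 17.5% of border cells. With every cell thinned to 2000 UMIs, which leaves 71 and 1625 microglia-like cells and leaves out 23 and 309 shallower ones, Ccl3 was detected in 50.7% and 51.9% and Ccl4 in 52.1% and 47.1% of them. About as many microglia-like cells carried these 2 genes in library 1 as in library 2 at equal depth.

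The CXC chemokines parted the same 2 classes in opposite directions. Cxcl10, which acts on cells with Cxcr3, was at 309 and 304 CPM in microglia-like cells and at 57.7 and 97.5 CPM in border macrophage-like cells, and was detected in 22.3% and 25.1% against 6.67% and 11.9% of cells. Cxcl2, a neutrophil attractant, was at 271 and 413 CPM in the border class and at 102 and 170.4 CPM in the microglia-like class. It was detected in 13.3% and 19.4% of border cells and in 7.45% and 8.53% of microglia-like cells. The groups did not overlap for either gene. Thinned to 2000 UMIs, Cxcl10 was detected in 19.7% and 19.9% of microglia-like cells.

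The cytokine genes Tnf, Il1a and Il1b also stood higher in microglia-like cells, and the border class held few of their UMIs. Tnf was at 58.7 and 69.7 CPM there, in 18.1% and 17.0% of cells, and at 11.5 and 33.0 CPM in border macrophage-like cells, where the values rest on 2 and 23 UMIs. Il1a was at 89.6 and 65.7 CPM in microglia-like cells, in 18.1% and 17.7% of them. In the border class it had no UMI in library 1 and 2 UMIs in library 2. Il1b was at 24.7 and 41.7 CPM in microglia-like cells but in only 3.19% and 3.57% of them, with 1 UMI in the border class of each library. The neighbours Il1a and Il1b thus differed in spread over cells: more microglia-like cells held a UMI of Il1a than of Il1b in both libraries. Thinned to 2000 UMIs, Tnf was detected in 9.86% and 10.6% of microglia-like cells.

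Whether the 2 macrophage classes differed was tested with edgeR's quasi-likelihood F test on UMIs summed per class and library. The fit held the 12 classes that reached 40 cells in each library (24 sums), had the library as a block and left 11 residual degrees of freedom. The test also draws its estimate of spread from all genes together, so its p-values do not rest on these degrees of freedom alone. The SE given is the size of the log2 fold change divided by the square root of the test's F. Calls needed 3 things: a Benjamini-Hochberg adjusted p below 0.05, a 2-fold difference and 1 direction in the 2 libraries. Of 13423 genes tested, 6.61% were called, 2.53% as higher in border macrophage-like and 4.08% as higher in microglia-like cells. The genes tested left out those used for clustering and the cell type markers, but kept the 10 genes and the lists. The shares over all genes tested are thus no like measure for the 10 genes or the lists. Of the 10 genes, 3 were called higher in the border class, 6 higher in the microglia-like class and 1 was not called. The median log2 fold change, border minus microglia, was -1.67 over the 10 genes and -0.28 over all genes tested. Since the classes are clusters drawn from the same cells and the list was chosen with earlier results of these data in view, the p-values are no independent support for a difference.

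Among the monocyte attractants, Ccl2 was 11.1-fold higher in the border class by this fit (log2 3.48 ± 0.15 SE, edgeR adjusted p = 8.8e-119). Ccl7 was 56.0-fold higher (log2 5.81 ± 0.29, edgeR adjusted p = 6.1e-83). By library the log2 ratios were 4.62 and 3.06 for Ccl2 and 5.81 and 5.69 for Ccl7. Ccl12 was also higher in both libraries, by 0.96 ± 0.14 on the log2 scale (edgeR adjusted p = 2.9e-09), which is just under the fold limit. Ccl3 was 3.60-fold higher in microglia-like cells (log2 -1.85 ± 0.16, edgeR adjusted p = 6.6e-30) and Ccl4 6.05-fold higher (log2 -2.60 ± 0.19, edgeR adjusted p = 6.6e-38). By library the log2 ratios were -2.05 and -1.55 for Ccl3 and -1.98 and -2.91 for Ccl4. Cxcl10 was 4.03-fold higher in microglia-like cells (log2 -2.01 ± 0.20, edgeR adjusted p = 1.1e-20). Cxcl2 was higher in the border class by 1.09 ± 0.16 (edgeR adjusted p = 2.3e-09), also close to the fold limit. Without the library block its log2 fold change was 0.998 and the gene was not called.

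**Figure D2:**
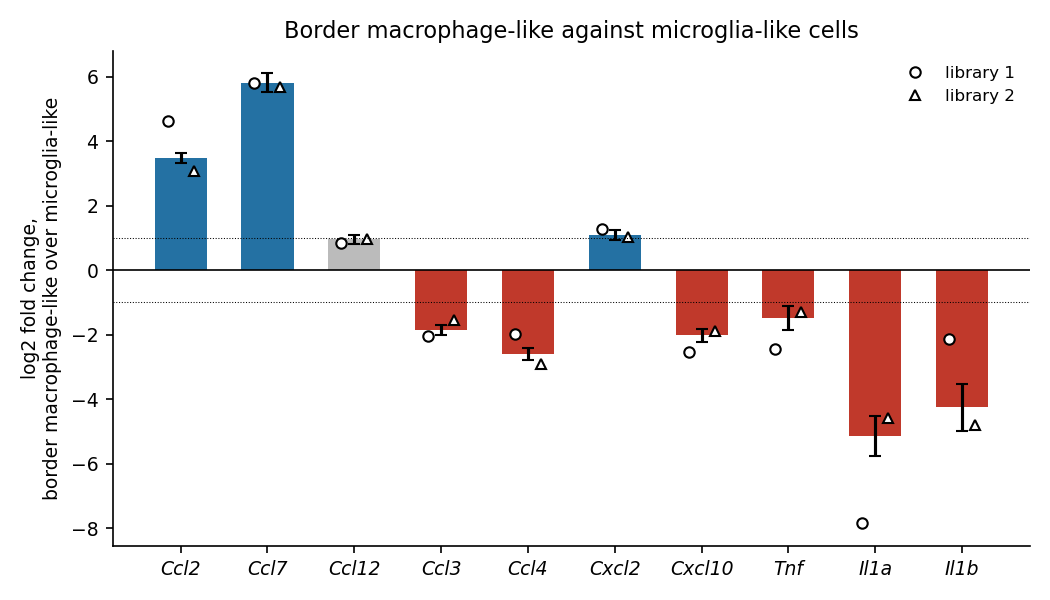
Log2 fold change of the 10 genes, border macrophage-like minus microglia-like, from the edgeR fit (bars, SE), with the ratio in each library as points. Ccl2, Ccl7, Ccl12 and Cxcl2 lie above 0 and the other 6 genes below 0, with both libraries on the same side for every gene.

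Tnf was 2.80-fold higher in microglia-like cells (log2 -1.48 ± 0.37, edgeR adjusted p = 0.00159). For the interleukin genes the border class held at most 2 UMIs per library, so a counting interval is given. The ratio of pooled counts, microglia-like over border, was 29.0 for Il1a, with an exact 95% interval from 7.99 to 239.9. It was 17.9 for Il1b, with an interval from 4.91 to 148. Both were called by edgeR (adjusted p = 7.4e-14 and 2.9e-07). The calls depended on the tool: DESeq2's Wald test on all classes called only Ccl2 and Ccl7, with adjusted p between 0.414 and 0.952 for the other 8 genes. Over all 13423 genes tested it called 578, of them 409 higher in the border class and 169 in microglia-like cells. On the sums of the 2 classes alone, an alternative chosen after seeing the data, DESeq2 called 8 of the 10, all but Tnf (adjusted p = 0.371) and Il1b (adjusted p = 0.11). It called 194 of the 5174 genes tested there.

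Beside the list counts below stand the edgeR shares over all genes tested, with the limit given above. They were 2.53% higher in the border class and 4.08% higher in microglia-like cells, with a median log2 fold change of -0.28. Of 10 receptor and antagonist genes tested, 2 were called higher in the border class and 1 in the microglia-like class, with a median log2 fold change of 0.33. DESeq2 on all classes called 0 and 1. Ccr1, which binds Ccl3, was at 196 and 146 CPM in the border class and at 18.5 and 16.7 CPM in microglia-like cells (log2 3.07). Cxcr3, the receptor of Cxcl10, rested on 9 and 24 UMIs in the border class and on 0 and 15 in the microglia-like class (log2 4.17). Ccr2, the receptor of the monocyte attractants, had 0 and 6 UMIs in microglia-like cells and none in border cells, too few to test; it was named after its values were seen. The receptors of Tnf were present in both classes and were not called: Tnfrsf1a was at 55.6 and 51.4 CPM in microglia-like and at 98.1 and 80.3 CPM in border cells, and Tnfrsf1b at 55.6 and 46.8 CPM against 23.1 and 38.7 CPM.

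Of 13 other chemokines tested, 3 were called, all higher in the border class (median log2 0.13). Pf4, a platelet and macrophage chemokine, was at 12286 and 10591.5 CPM there and at 3.09 and 44.6 CPM in microglia-like cells (log2 8.76). Ccl24 was at 1310.0 and 1236 CPM against 43.2 and 49.3 CPM (log2 4.56). Ccl8 had 107 and 63 UMIs in the border class and 0 and 1 in the microglia-like class, a pooled ratio of 1666 with an exact 95% interval from 295 to 66182. Ccl6 and Ccl9 were not called: Ccl6 was at 55.6 and 91.9 CPM in microglia-like and at 75.0 and 50.2 CPM in border cells, and Ccl9 at 40.1 and 65.7 CPM against 51.9 and 83.2 CPM. Of 10 other cytokine genes, 3 were called, all higher in microglia-like cells (median log2 -0.92): Csf1, a growth factor of macrophages, Ifnb1 and Osm (log2 -1.72). The pooled ratio was 21.6 for Csf1 (5.94 to 179) and 20.7 for Ifnb1 (3.68 to 822). Of those not called, Tgfb1 had a log2 fold change of 0.31, Il18 of 0.65 and Il16 of -0.27. With DESeq2 on all classes, 1 of the chemokines and 1 of the cytokines were called, in the same directions.

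Genes of the NF-kappaB list that were called stood on the microglia side. Of 24 NF-kappaB factors and feedback genes tested, 7 were called higher in microglia-like cells and none in the border class (median log2 -0.60). DESeq2 on all classes called 4, all higher in microglia-like cells. Nfkbia, the inhibitor that NF-kappaB itself induces, was at 386 and 468 CPM in microglia-like cells and at 133 and 205 CPM in border cells (log2 -1.46). Tnfaip3, another feedback inhibitor, was at 142 and 145 CPM against 23.1 and 24.4 CPM (log2 -2.80). Bcl2a1b, a survival gene and one of a family of near-identical copies whose reads may be shared, had a log2 fold change of -4.04. Icam1 was at -2.45, Gadd45b at -2.44 and Cd83 at -1.11. Ier3 was not called (log2 0.27). With DESeq2's size factors in place of TMM in the edgeR fit, 1 gene of the list was called higher in the border class and 6 in microglia-like cells. Of 9 genes that process Tnf and interleukin-1, Nlrp3 (log2 -1.85) and Aim2 (log2 -1.35), sensors of inflammasomes, were called higher in microglia-like cells and Nlrc4 (log2 4.93) in border cells, with a median of -0.72; DESeq2 on all classes called 0 of these 9. Pycard (log2 -0.83), the adaptor of inflammasomes, Adam17 (log2 -0.72), which sheds Tnf from the cell surface, and Gsdmd (log2 -0.98) were not called. Among 6 genes that control cytokine mRNA decay, with a median log2 fold change of -0.24, Zfp36 was at 439 and 318 CPM in microglia-like and at 600.2 and 422 CPM in border cells. The log2 fold change was 0.24 for Zfp36l1, -0.06 for Zfp36l2 and -0.41 for Hnrnpd.

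Interferon response genes went the other way from Cxcl10, which interferons can also induce. Of 14 tested, 10 were called higher in the border class and none in the microglia-like class, with a median log2 fold change of 2.53. DESeq2 on all classes called 8. Bst2 was at 1027 and 1017 CPM in border and at 213 and 222 CPM in microglia-like cells (log2 1.98), and Ifitm3 at 467 and 588 against 37.1 and 23.9 CPM (log2 4.15). Ifit3 had a log2 fold change of 4.78, Oasl2 of 4.28, Rsad2 of 4.16 and Rtp4 of 2.45. Isg15 (log2 0.77) and Xaf1 (log2 1.35, with opposite signs in the 2 libraries) were not called. The promoter of Cxcl10 holds the interferon element core and NF-kappaB matches shown above; which of these bears on its level was not tested.

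Immediate early and heat-shock genes respond to many kinds of stimulation and to the handling of tissue, and the 4 with the highest level in microglia-like cells, Hspa1b, Hspa1a, Jun and Junb, stood above the mean of the other classes in both macrophage classes. Hspa1a was at 4617 and 3476 CPM in microglia-like and at 4686 and 2883 CPM in border macrophage-like cells, against 162 ± 50.7 CPM (SD, n = 2 libraries) over the other classes. Jun was at 1288 and 974 CPM, 1598.5 and 1115.5 CPM, and 278 ± 4.56 CPM in the same order. Hspa1b was at 5237 and 3971 CPM in microglia-like and at 3179.7 and 2839 CPM in border cells, against 204 ± 63.2 CPM. Junb was at 1090.1 and 902 CPM, 814 and 820.1 CPM, and 126 ± 4.14 CPM. Not all genes of the list were higher: in microglia-like cells Klf4 was at 15.4 ± 0.0647 CPM and Egr3 at 4.98 ± 1.70 CPM, against 18.3 ± 0.291 and 6.66 ± 3.96 CPM over the other classes (SD, n = 2 libraries). Of 19 genes of this kind tested (median log2 0.16), 6 were called higher in the border class, among them Fos (log2 1.27), Fosb (log2 1.84), Dusp1 (log2 1.78) and Klf4 (log2 2.24). Atf3 (log2 -1.56) and Egr1 (log2 -1.25) were called higher in microglia-like cells. The part of tissue handling in the levels of the 10 genes was not tested.

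Within the microglia-like class the 10 genes varied between clusters. The main cluster, with 80 and 1439 cells, held 5290.0 and 4969 CPM of the 10 genes, and a cluster of dividing cells, with 11 and 319 cells, held 4113 and 2902 CPM. The third cluster, with 3 and 176 cells, held 590 and 987 CPM. In library 2, where the numbers allow a comparison by value, Ccl4 was at 2510 CPM in the main cluster, 1237 CPM in the dividing cluster and 312 CPM in the third, and Ccl3 at 1309, 738 and 198 CPM in that order. Cxcl2 was at 206, 85.5 and 5.82 CPM and Cxcl10 at 348, 214 and 29.1 CPM. Ccl12 did not follow this order: it was at 299, 371 and 338 CPM. The third cluster carried the microglia markers at 4842 CPM in library 2, against 8024 CPM in the whole class. It was also shallower, with a median of 1620 UMIs per cell over both libraries. The main cluster had a median of 3641 UMIs and the dividing cluster of 5272. The part of depth or cell quality in its levels was not tested.

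**Figure D3:**
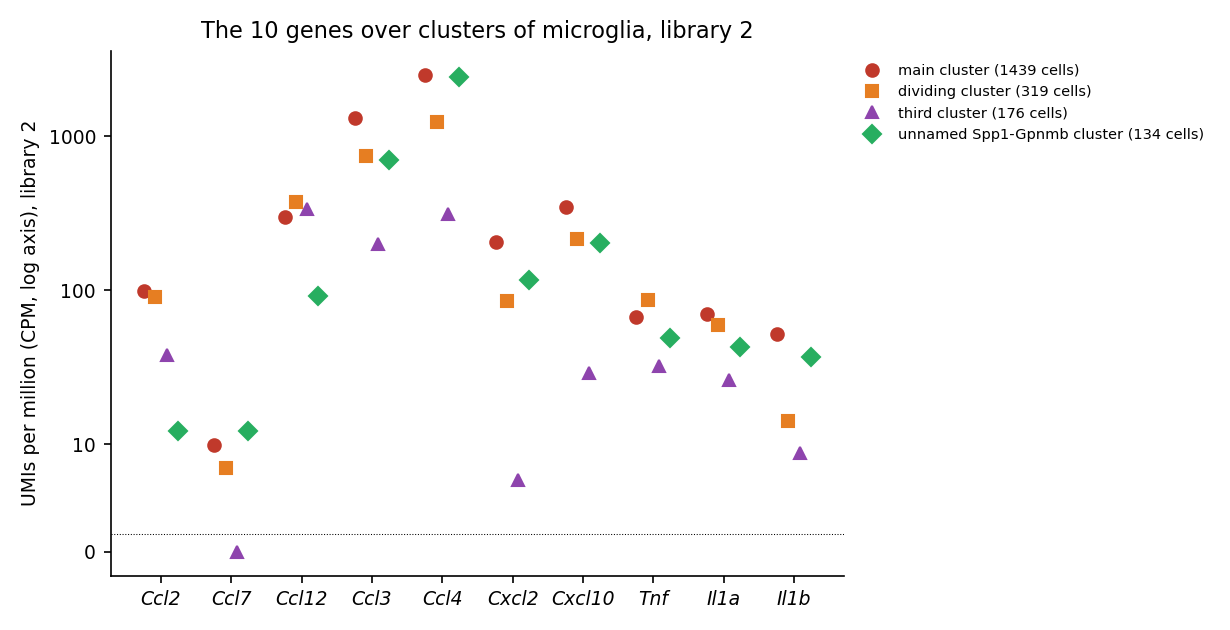
Level (CPM, log axis, with 0 under the dotted line) of the 10 genes in the 3 microglia-like clusters and in the unnamed cluster led by Spp1 and Gpnmb, in library 2. Ccl3, Ccl4, Cxcl2 and Cxcl10 are lower in the third cluster than in the main one in library 2, and Ccl12 is not.

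A further cluster, led by Spp1, Gpnmb and Mmp12, stayed unnamed because its cells were both shallow, with a median of 1065.5 UMIs, and all from 1 library. It held 134 cells of library 2 and 3676 CPM of the 10 genes. Ccl4 was at 2410 CPM there, in 62.7% of cells, and Ccl3 at 703 CPM, in 46.3%. Ccl12 was at 91.7 CPM, under its value in every microglia-like cluster of library 2, and Ccl2 had 2 UMIs. A small unnamed cluster led by S100a8, with 10 and 83 cells, held 736 and 1362 CPM of the 10 genes. Il1b had 18 UMIs there in library 2, in 9.64% of cells, and Ccl7 and Ccl12 had none. In library 2 its highest marker lists were neutrophil, at 16123 CPM, and erythroid, at 14672 CPM. In library 1 they were mast cell, at 7057.5 CPM, and monocyte, at 3637 CPM, while the neutrophil list was at 43.3 CPM, so the cluster was not the same mix of cells in both.

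Single microglia-like cells differed widely in these genes. At 2000 UMIs per cell, 15.5% and 15.7% of cells had none of the 10, and 1 cell of library 2 had the most at once, 8. The 163 cells of library 2 with the most UMIs of a gene, out of 1625, held 67.3% of the UMIs of Ccl4, 53.7% of Ccl3, 54.0% of Ccl12 and 80.1% of Cxcl10. In library 1 the 8 highest of 71 cells held 58.1% of Ccl4, 52.4% of Ccl3 and 85.0% of Cxcl10. Up to 37 of the 2000 UMIs of a cell were Ccl4 in library 1 and up to 120 in library 2. A small part of the cells thus held most of the UMIs of Ccl4 and Cxcl10.

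The genes did not all occur in the same cells. Among microglia-like cells thinned to 2000 UMIs, Ccl4 was detected in 77.8% of cells with Ccl3 and in 25.7% without it in library 1, and in 63.2% and 29.8% in library 2. Cxcl10 was detected in 33.3% against 5.71% in library 1 and in 25.2% against 14.2% in library 2. For Ccl12 the shares were 38.9% against 48.6% and 37.3% against 35.9%, with no common direction. Cxcl2 also changed direction, with 5.56% against 8.57% in library 1 and 11.02% against 4.23% in library 2. Cells with and without Ccl3 numbered 36 and 35 in library 1 and 844 and 781 in library 2. These shares describe cells of the same library and carry no test.

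To show how the other genes follow, the thinned microglia-like cells were put in 4 ranges by their summed UMIs of Ccl3 and Ccl4: none, 1 to 4, 5 to 19 and at least 20. The ranges held 26, 16, 19 and 10 cells in library 1 and 548, 578, 380 and 119 in library 2. They are a scale, not cell types, and 1 and 36 cells lay within 2 UMIs of the highest limit. From the lowest to the highest range in library 2, Cxcl10 was at 72.1, 204, 324 and 1172 CPM and Cxcl2 at 28.3, 61.4, 169.7 and 727 CPM. Il1b was at 10.9, 17.3, 23.7 and 244 CPM, and Ccl2 at 34.7, 70.9, 132 and 324 CPM. Ccl12 was nearly flat beside these, at 286, 354, 329 and 399 CPM. In library 1, with few cells per range, Cxcl10 was at 38.5, 250, 395 and 750 CPM and Ccl12 at 538, 125, 237 and 500 CPM. The order of Ccl2, Cxcl2 and Il1b was not found in library 1. Ccl2 was at 135, 62.5, 78.9 and 100 CPM there, Cxcl2 at 135, 0, 78.9 and 150 CPM, and Il1b at 76.9, 0, 0 and 100 CPM.

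Summed lists and further genes were read over the same ranges. The summed NF-kappaB list was at 1580.3, 1947, 2787 and 5399 CPM in library 2 and at 1865, 2312, 2579 and 3850 CPM in library 1. Cd83, a surface protein of activated myeloid cells, was at 120, 201, 307 and 765 CPM in library 2 and at 192, 187.5, 289 and 350 CPM in library 1. The immediate early list was at 12845, 14398, 14529 and 17378 CPM in library 2, but at 21615, 15281, 13289 and 17200 CPM in library 1, so it had no common direction. P2ry12, a gene of resting microglia, was at 809, 704, 557 and 429 CPM in library 2 and at 1096, 437.5, 421 and 400 CPM in library 1. The 10 microglia markers together, P2ry12 among them, had no common direction. They summed to 8760, 9005, 8151 and 7849 CPM in library 2. In library 1 they summed to 9115, 8156, 9184 and 9600 CPM. Spp1, a secreted protein of microglia active in clearance, was at 207, 583, 1392 and 1441 CPM in library 2 but at 308, 31.25, 158 and 1300 CPM in library 1. Cd83, P2ry12 and Spp1 were read in addition to the lists.

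**Figure D4:**
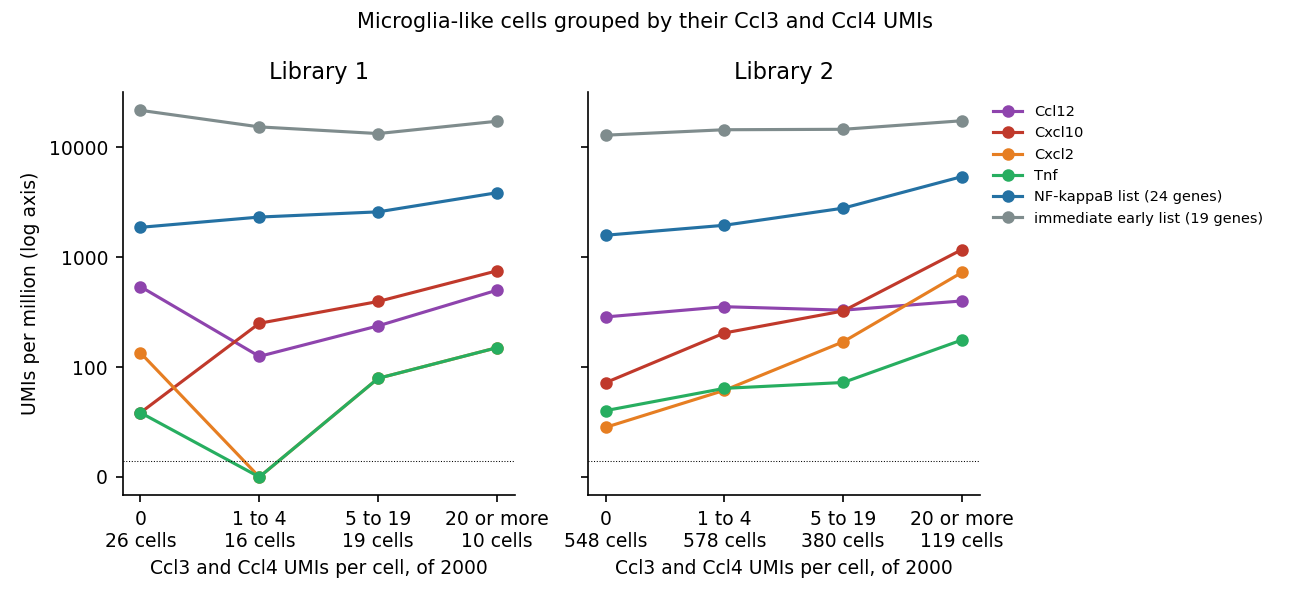
Level (CPM, log axis; 0 under the dotted line) of genes and summed lists in microglia-like cells thinned to 2000 UMIs, by the summed UMIs of Ccl3 and Ccl4 per cell, per library. Cxcl10 and the NF-kappaB list are higher in each further range in both libraries, and Ccl12 is not.

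Outside the macrophage classes, fibroblast-like cells of library 2 stood highest for several of the 10 genes. There, 102 cells belonged to a shallow cluster led by Col13a1 that held 1090 CPM of the 10 genes, beside 2536 CPM of microglia markers and 1044 CPM of border macrophage markers. The part of these markers' cells in its level was not tested. In endothelial-like cells of library 2, Ccl4 had 73 UMIs, 65 of them in 1 cell.

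Cases outside the macrophages were picked after their values were seen. Ccl3 was detected in 27 of 603 pericyte-like cells of library 1 (4.48%, exact 95% interval 2.97% to 6.45%) and in 2 of 71 in library 2 (2.82%, 0.343% to 9.81%). Excitatory neuron-like cells had 0.207% and 1.71%. Pericytes are the contractile cells on small vessels, and the class also holds smooth muscle genes such as Acta2. Thinned to 2000 UMIs, Ccl3 was in 9 of 548 pericyte-like cells of library 1 (1.64%, 0.754% to 3.09%) and in 1 of 900 neurons (0.111%, 0.00281% to 0.618%). In library 2 it was in 0 of 65 pericyte-like cells and 4 of 589 neurons (0.679%). At equal depth the intervals of pericyte-like cells and neurons did not overlap in library 1, and in library 2 the neurons had the higher share. Since the case was picked from many by its values, this gap is no test of a difference. In library 1 the median depth was 4810 UMIs in pericyte-like cells with Ccl3 and 3775 in those without. Among the 394 pericyte-like cells of library 1 without a UMI of a macrophage marker, 14 had Ccl3 (3.55%, 1.96% to 5.89%). Ccl3 made up 88.9% of the UMIs of Ccl3 and Ccl4 together in all pericyte-like cells of library 1 (73.9% to 96.9%; 32 and 4 UMIs), against 43.3% in the microglia-like cells of the same library (40.6% to 46.0%). In library 2 the pericyte-like cells held 2 and 1 UMIs (66.7%, 9.43% to 99.2%), too few to set against the 34.7% of the microglia-like cells. These intervals cover the counting of UMIs only. Ccl2 was detected in 14 of the 603 pericyte-like cells (2.32%) and in 0 of 968 excitatory neuron-like cells, a count of 0 that allows a share of cells with a UMI of up to 0.310% (3 cells of the total).

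Il1b was detected in 10 of 97 Cajal-Retzius cell-like cells of library 2 (10.3%, exact 95% interval 5.06% to 18.1%) and in 1 of 37 in library 1. These are early neurons of the outer cortex. Of the excitatory neuron-like cells, 0 of 968 and 0 of 645 had a UMI, which by the same 3 cells allows a share of cells with a UMI of up to 0.310% and 0.465%. Among the 55 Cajal-Retzius cell-like cells of library 2 without a macrophage marker, 7 had Il1b (12.7%). The class was deeper than the neurons, with a median of 6952 and 6707 UMIs against 3531 and 3481. Thinned to 2000 UMIs, Il1b was in 0 of 37 Cajal-Retzius cell-like cells of library 1 and in 2 of 94 of library 2 (2.13%, 0.259% to 7.48%), against 0 of 900 and 0 of 589 neurons, where the exact interval reaches 0.409% and 0.624%, so at equal depth the intervals of the class and the neurons overlapped. In library 2 the median depth was 6399.5 UMIs in Cajal-Retzius cell-like cells with Il1b and 6826 in those without. The share over clustering settings lay between 8.47% and 10.6%. By CPM, Il1b in this class, at 3.84 and 16.5 CPM, overlapped the border macrophage-like values. Erythroid markers summed to 3.84 and 4982 CPM in the class and to 1.47 and 906 CPM in the excitatory neuron-like cells. The part of depth or of blood cells in the Il1b counts was not tested.

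**Figure D5:**
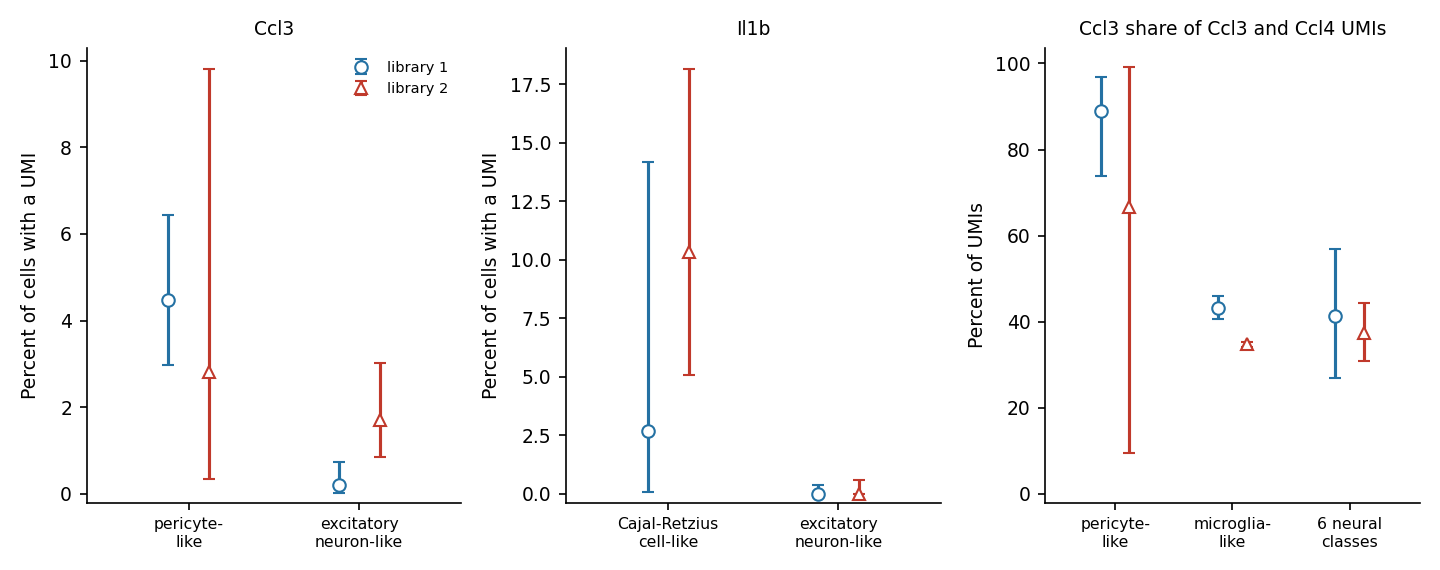
Percent of cells with a UMI of Ccl3 in pericyte-like cells and of Il1b in Cajal-Retzius cell-like cells, beside excitatory neuron-like cells, per library, and the share of Ccl3 among the UMIs of Ccl3 and Ccl4 in pericyte-like, microglia-like and 6 pooled neural classes, with exact 95% binomial intervals that cover counting error only. The shares of cells are not thinned: Ccl3 in pericyte-like cells of library 1 and Il1b in Cajal-Retzius cell-like cells of library 2 lie above the neurons of the same library, by less at 2000 UMIs per cell (1.64% and 2.13%).

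In the genome several of the genes are neighbours (build mm10, GENCODE). Ccl2 (chr11:82035571-82037453), Ccl7 (chr11:82045712-82047525) and Ccl12 (chr11:82101845-82103400) lie on the plus strand, and Ccl3 (chr11:83647844-83649355, minus strand) and Ccl4 (chr11:83662584-83664683, plus strand) lie further along the same chromosome. By level, Ccl2 and Ccl7 were far higher in the border class and Ccl12, the farther neighbour, was shared more evenly. Ccl3 and Ccl4 were both higher in the microglia-like class, and the border class held them too. Cxcl2 (chr5:90903871-90905938, plus strand) and Cxcl10 (chr5:92346638-92348889, minus strand) share chromosome 5 and went opposite ways. Il1a (chr2:129299610-129309972) and Il1b (chr2:129364570-129371139) are on the minus strand, and Tnf is at chr17:35199381-35202007 on the minus strand. The longest identical stretch between transcripts of any pair of the 10 genes was 23 bases, between Ccl2 and Ccl7.

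The genes whose pattern over classes was most like the mean of the 10 were C3ar1 (Pearson r = 0.988), Cd300a (0.986), Cd33 (0.985), Ptprc (0.983) and Cd79b (0.982). The correlation is over 24 points, 12 classes in each of 2 libraries, on log2(CPM + 1), and points of 1 library share its depth, so it is a description with no test. C3ar1 is a receptor of the complement system and Ptprc is the leukocyte antigen CD45.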

How the data were processed

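The deposited values are counts: the authors' tables hold whole UMI numbers for each gene in each barcode, unscaled, per the file headers, made with Cell Ranger 6.1.2 on mm10, per the submitters' processing notes. How cells were called is not given in the sources used here. Barcodes were kept from 500 genes up and to 10% mitochondrial UMIs; Scrublet's automatic threshold marked 589 doublets in library 1 and 0 in library 2, where the 971 highest scores were removed instead, a choice made after seeing the data. Cells were clustered in scanpy 1.11.5 (2000 variable genes, 30 components, 15 neighbours, Leiden resolution 1) into 29 clusters, named from marker lists with at least 3 markers raised 2-fold; clusters under 0.6 of their libraries' median UMIs and over 95% from 1 library stayed unnamed, limits set after seeing the data. The 10 genes and all 9 gene lists were chosen with earlier results of these data known and left out of clustering. Genes are named by a rule: all 10, and from each list the 4 highest in microglia-like cells plus up to 6 called; 1 gene of the receptor list is not reported here by name. The test was edgeR 4.0.16 (quasi-likelihood, TMM, filterByExpr, Benjamini-Hochberg). On simulated counts for 12075 genes, 200 of them changed, it recovered 58% of 4-fold and 77% of 8-fold changes with 8 false calls. There, all classes shared 1 profile apart from the changed genes, with a fixed spread and no library effect. Real classes differ in many genes, so these rates do not carry over to the data. Alternatives were DESeq2 1.42.0, other filters, doublets kept and the replicate block left out. Binomial intervals are exact (Clopper-Pearson) and, like count ratios, cover counting error only.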

Additional observations from a re-analysis of the deposited data

Results flagged for a closer look

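Barcodes that no comparison used also held the 10 genes. Barcodes removed by the quality limits held 224 CPM of them in library 1 (360 barcodes) and 684 CPM in library 2 (4543 barcodes). Barcodes removed as doublets held 83.8 CPM (589 barcodes) and 803 CPM (971 barcodes). An unnamed shallow cluster led by Gm48283 held 35.1 CPM in library 1 and 897 CPM in library 2, and one led by Tmem267 held 981 CPM in library 2. Each of these levels was higher in library 2 than in library 1 where both gave a value, and none reached the 4338 CPM of the microglia-like cells of library 2. Their source was not tested.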

How the results depend on the processing

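The summed level of the 10 genes in microglia-like cells was 4687 CPM, between 4338 and 5037 CPM with 1 library left out, and 3971 CPM as the mean of each cell's CPM. Its other alternatives gave 4207 to 4966 CPM. Of 887 genes called between the macrophage classes, 340 were higher in the border class and 547 in the microglia-like class. DESeq2 on all classes called 578 in all and 169 higher in microglia-like cells. DESeq2 on the 2 classes alone, chosen after seeing the data, called 194, of them 131 border and 63 microglia. A log2 limit of 2 gave 425, 183 and 242, and ended the calls of Ccl3, Cxcl2 and Tnf. The calls higher in microglia-like cells were 357 with doublets kept, 329 with DESeq2's size factors and 263 with the 2 classes alone in the fit. The border share of calls moved from 38.3% to 59.3% with DESeq2's size factors, 70.8% with DESeq2 and 53.0% with doublets kept, while the median over all genes tested went from log2 -0.28 to -0.06 and 0.12 with the first 2 of these. The cause was not tested. Leaving out the replicate block gave 847 calls, 336 border and 511 microglia, and lost Cxcl2 (log2 0.998, edgeR adjusted p = 3.7e-04). Ccl12 was called under 8 of 15 alternatives (log2 0.92 to 1.17). None of the 10 genes changed sign under any alternative run, and 129 of their 150 alternative values kept their side of the threshold. Leaving out a library leaves no residual degrees of freedom, so the test has only each library's ratio.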
